A study of Mus musculus with 6 samples.

Results

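The genes described here are 10 amino acid transporters of the plasma membrane, chosen by name as carriers of neutral and cationic amino acids and matched by symbol to 10 of the 35275 Ensembl identifiers in the expression table. They are Slc3a2, Slc7a5, Slc7a8, Slc43a1, Slc7a1, Slc1a4, Slc1a5, Slc38a1, Slc38a2 and Slc6a9. These genes, and the gene lists set beside them below, were chosen with earlier results of these data known. RNA sequencing compared suprabasal keratinocytes of mouse embryos in which spastin, an enzyme that severs microtubules, was induced with the same cells of control embryos. Each group had 3 libraries.

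The K10-spastin embryos (K10rtTA;TREspastin) and the control embryos were of the CD1 IGS strain, and skin was taken at E16.5, counted in days of gestation. The dams carried K10-rtTA, TRE-H2B-GFP and TRE-Spastin and ate doxycycline chow from E14.5. The keratin 10 promoter drives the activator rtTA in suprabasal cells, and rtTA with doxycycline turns on the TRE transgenes. Back skin epidermis was freed with dispase, digested in trypsin and versene, and sorted for cells with the nuclear fluorescent protein H2B-GFP. Per the labels, the 3 RNA samples of a group were independent. The sources used here do not give the number of embryos behind each library or the transgenes that control embryos carried. The p-values therefore cover only the spread between these libraries. In such bulk RNA, fewer cells of a type and less RNA per cell cannot be told apart.

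Amino acids enter cells through carriers that differ in substrate and in driving force. SLC3A2, the heavy chain of CD98, has to pair with a light chain such as LAT1 (SLC7A5) or LAT2 (SLC7A8) to bring that exchanger to the cell surface, where it trades intracellular glutamine for leucine and other large neutral amino acids. System A carriers (SLC38A1 and SLC38A2) use the sodium gradient to load the cell with alanine and glutamine, and Slc38a2 is known in many cell types as a gene induced by amino acid shortage and by hypertonic stress. In keratinocytes these amino acids feed the synthesis of keratins and of the proteins of the cornified envelope.

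The promoter sequences are shown for 3 members whose transcripts separated the groups, since their letters can be set beside the values that follow. They are from RefSeq on GRCm38.p6, run 5′ to 3′ on the gene's strand, and cover 250 bases before the annotated start and the first 30 after it. Slc38a2 lies on the minus strand at chr15:96699699-96699978, Slc1a4 on the minus strand at chr11:20332684-20332963, and Slc43a1 on the plus strand at chr2:84840073-84840352. Capitals mark a match to a searched motif, and the Slc38a2 window holds none. Sequence outside the windows, introns among it, was not searched, so an element there would have been missed.
Slc38a2: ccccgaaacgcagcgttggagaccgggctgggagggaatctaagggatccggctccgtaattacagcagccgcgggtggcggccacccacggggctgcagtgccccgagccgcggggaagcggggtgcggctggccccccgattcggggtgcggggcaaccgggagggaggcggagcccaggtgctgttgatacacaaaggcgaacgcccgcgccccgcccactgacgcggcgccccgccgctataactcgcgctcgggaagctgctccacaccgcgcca
Slc1a4: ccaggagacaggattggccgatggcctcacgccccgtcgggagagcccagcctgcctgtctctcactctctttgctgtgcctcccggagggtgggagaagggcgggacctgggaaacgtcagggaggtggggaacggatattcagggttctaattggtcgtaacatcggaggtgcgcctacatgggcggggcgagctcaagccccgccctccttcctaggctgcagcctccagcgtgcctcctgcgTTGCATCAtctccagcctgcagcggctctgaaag
Slc43a1: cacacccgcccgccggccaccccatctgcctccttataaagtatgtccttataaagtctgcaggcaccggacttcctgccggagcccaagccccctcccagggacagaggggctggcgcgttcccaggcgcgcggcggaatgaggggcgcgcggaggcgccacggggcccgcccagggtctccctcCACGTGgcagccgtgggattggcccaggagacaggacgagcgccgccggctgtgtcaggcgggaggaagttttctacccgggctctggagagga

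The motifs searched, on both strands of windows that ran to 50 bases after the start, were the E-box CACGTG, the element TGATGNAA and the cAMP response element TGACGTCA. No motif overlapped another in a member's window. CACGTG stood at offsets -64 to -59 from the start of Slc43a1, where the start is 0, and TGATGNAA stood on the reverse strand at offsets -4 to 3 of Slc1a4. Of 32851 promoters in the RefSeq table, 7.15% held CACGTG, 3.97% held TGATGNAA and 1.79% held TGACGTCA. The table matched 7 of the 10 members with 10 promoters in all, and the other 8 of these windows held none of the 3 motifs. The Slc38a2 window had a GC content of 73% and 41 CpG dinucleotides, against 65% and 21 for Slc1a4 and 67.7% and 26 for Slc43a1. All promoters of the table had a median GC content of 52.7% (quartiles 45.7% and 61.7%) and a median of 7 CpG dinucleotides (quartiles 3 and 20). The table held no entry for Slc7a5, Slc1a5 or Slc38a1.

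The libraries held 17.4, 19.6 and 17.4 M (mega) fragments in K10-spastin 1 to 3 and 22.5, 16.0 and 16.6 M in controls 1 to 3, read from the step size of the low values. Spast (ENSMUSG00000024068), the induced gene, stood at 1431, 639 and 213 FPKM (fragments per kilobase per M fragments) in K10-spastin 1 to 3, against 21.2, 24.0 and 21.4 FPKM in controls 1 to 3. Every K10-spastin library stood far above every control, as the labels have it, and the table does not separate transgene from endogenous Spast transcripts. The summed FPKM of 5 spinous keratinocyte markers, Krt1 and Krt10 among them, was 31101 to 45803 in K10-spastin libraries and 51501 to 67829 in control libraries. Krt1 and Krt10 had ratios of the K10-spastin mean to the control mean of 0.617 and 0.571. Of the other markers in this sum, Sbsn and Krtdap had higher means in K10-spastin, with ratios of 1.74 and 1.18 and overlapping groups, and Dsg1a a ratio of 0.823. The 6 basal markers summed to 2495 to 4723 FPKM in K10-spastin and 4083 to 7171 FPKM in control. Krt14 and Itgb4 had ratios of 1.20 and 1.48, and Krt5, Itga6 and Col17a1 ratios of 0.597, 0.488 and 0.266, with overlapping groups. Krt15 had a ratio of 0.151, with every K10-spastin library below every control. K10-spastin 1 stood farthest from the controls on the first principal component, which held 62.1% of the variance, at 62.5 against 31.5 and 24.3 for K10-spastin 2 and 3 and between -43.7 and -36.1 for the controls.

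Among the 10 transporters Slc38a2 was the one called higher in K10-spastin, and none was called lower. The call was an adjusted p under 0.05 in limma's test on log2(FPKM + 1), adjusted by the Benjamini-Hochberg method over 11071 genes that averaged 1 FPKM or more, and log2 differences below are on that scale with their SE. The scale understates changes of low genes. Of the 10 members, 7 passed the filter, 1 was called higher, 0 were called lower and 6 were not called, while 2, or 28.6% of those tested, had an unadjusted p under 0.05. Across all tested genes 11.0% were called, 5.14% as higher and 5.90% as lower, and 31.5% had an unadjusted p under 0.05. The median log2 difference of the 7 tested members was 0.07, and that of all tested genes was -0.09. Slc38a1, Slc43a1 and Slc7a8 fell below the filter and were read in a fit without it, where 3.18% of 20977 genes were called, 1.52% as higher and 1.66% as lower. Groups were separate, with every library of one above every library of the other, for 1 tested member above control and 1 below, against 15.6% and 24.8% (40.4% in either direction) of all tested genes.

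**Figure D1:**
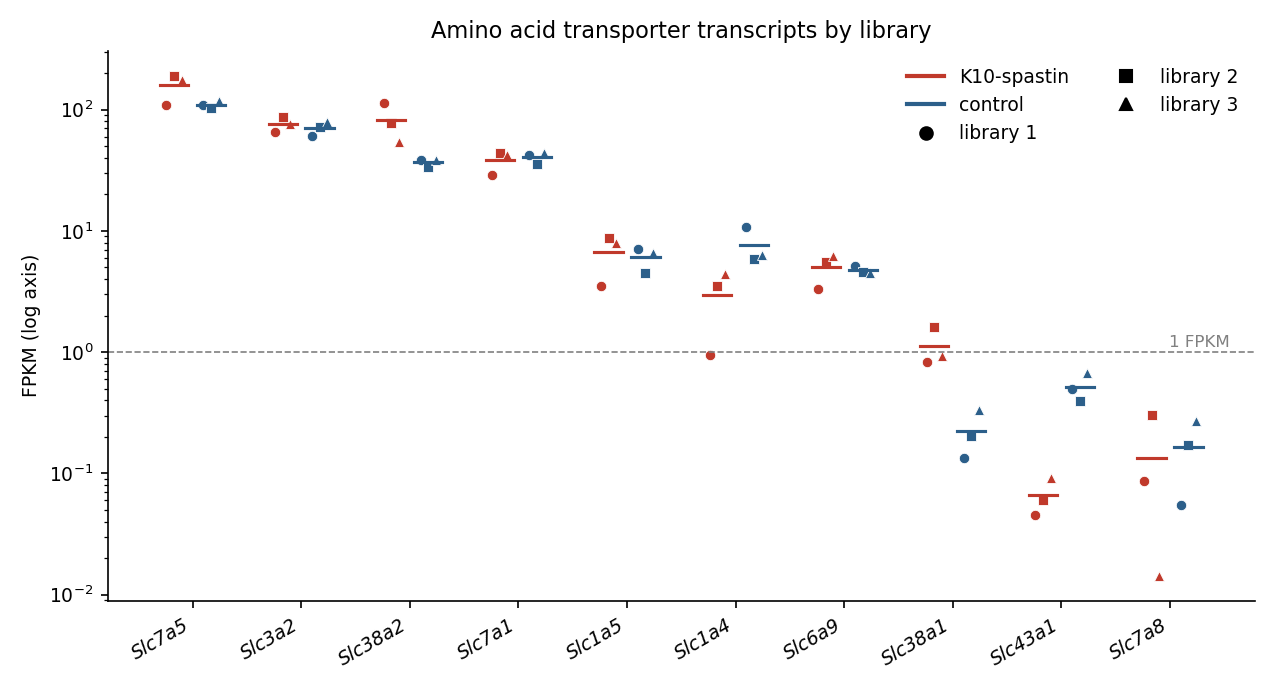
FPKM of the 10 transporters (log axis) in the 3 K10-spastin libraries (red, left of each pair) and the 3 control libraries (blue, right), with the group mean as a bar and the 1 FPKM filter as a dashed line. Circles, squares and triangles are libraries 1, 2 and 3, and the groups are separate for Slc38a2, Slc1a4, Slc38a1 and Slc43a1.

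The levels spanned about 4 orders of magnitude, as the plot of FPKM by library shows. FPKM is per length, but the annotation and counter behind these values are not known. Close levels of different genes therefore cannot be ranked with certainty. In K10-spastin the median levels ran from Slc7a5 at 175 FPKM through Slc38a2 at 78.2, Slc3a2 at 75.9 and Slc7a1 at 42.4 to Slc1a5 at 7.96, Slc6a9 at 5.55, Slc1a4 at 3.50, Slc38a1 at 0.932, Slc7a8 at 0.0858 and Slc43a1 at 0.0608 FPKM. In control they ran from Slc7a5 at 109 FPKM through Slc3a2 at 71.9, Slc7a1 at 41.9 and Slc38a2 at 38.6 to Slc1a5 at 6.60, Slc1a4 at 6.34, Slc6a9 at 4.57, Slc43a1 at 0.494, Slc38a1 at 0.204 and Slc7a8 at 0.170 FPKM. Slc7a5 was the most abundant member by median in both groups. Its range lay above that of Slc3a2 in control, while in K10-spastin the ranges of Slc7a5 and Slc38a2, and of Slc38a2 and Slc3a2, overlapped. In control the range of Slc1a5 overlapped those of Slc1a4 and Slc6a9, which did not overlap each other. In K10-spastin the ranges of Slc1a5, Slc6a9 and Slc1a4 overlapped, and that of Slc1a4 also overlapped Slc38a1. The ranges of Slc38a2 and Slc7a1 overlapped in control, where Slc7a1 was the higher in all 3 libraries. Slc38a2 lay wholly above Slc7a1 in K10-spastin, where its lowest library had 54.1 FPKM and the highest Slc7a1 library 44.3 FPKM. Slc43a1 lay wholly above Slc38a1 in control, and Slc38a1 lay wholly above Slc43a1 in K10-spastin.

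Slc3a2 (ENSMUSG00000010095), the shared heavy chain, was not called. It had 65.6, 87.8 and 75.9 FPKM in K10-spastin 1 to 3, against 60.3, 71.9 and 79.2 FPKM in controls 1 to 3. The groups overlapped, and the log2 difference was 0.11 ± 0.16 with a 95% interval of -0.27 to 0.49 (limma adjusted p = 0.671). An interval of that width leaves out changes of 2-fold in either direction. By the root mean square difference of centred log2 values over the 6 libraries, the 5 tested genes most like Slc3a2 were Bdp1 at 0.0332, Tnks2 at 0.0389, Larp4 at 0.0434, Aak1 at 0.0578 and Usp9x at 0.0580. Its nearest fellow member was Slc7a1 at 0.198, which ranked 1511 in likeness, and its partner Slc7a5 ranked 3381 at 0.253. The 5 genes were picked as the nearest of all tested genes, so they are close by selection. Shared regulation with Slc3a2 was not tested.

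Slc7a5 (ENSMUSG00000040010), the LAT1 light chain that carries leucine, had 110.0, 190.4 and 175 FPKM in K10-spastin 1 to 3, against 109, 103 and 118 FPKM in controls 1 to 3. K10-spastin 2 and 3 stood above every control, and K10-spastin 1 stood inside the control range. The means were 158 ± 42.6 FPKM in K10-spastin and 110.1 ± 7.65 FPKM in control (SD, n = 3 each). The log2 difference of 0.48 ± 0.21 (95% interval -0.01 to 0.98) was not called, with a limma adjusted p of 0.168. Without K10-spastin 1 it was 0.73 ± 0.10 (adjusted p = 0.0155), and under median-of-ratios scaling, where that library's factor was 0.826 against 1.01 to 1.08 for the others, it was 0.59 ± 0.14 (adjusted p = 0.0437). Over all 17 other settings it ranged from 0.33 to 0.73 and was called in only 4, with adjusted p-values of 0.00734 to 0.366.

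Slc7a8 (ENSMUSG00000022180), the LAT2 light chain, was near the limit of detection. It had 0.0858, 0.304 and 0.0143 FPKM in K10-spastin 1 to 3, against 0.0551, 0.170 and 0.270 FPKM in controls 1 to 3. With the annotated exon length these values correspond to between about 1.24 and 29.8 fragments, and 3 fragments were worth at most 0.0374 FPKM. The groups overlapped, and without the filter the log2 difference was -0.04 ± 0.11 (limma adjusted p = 0.841).

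Slc43a1 (ENSMUSG00000027075), which encodes LAT3, a uniporter for leucine and other large neutral amino acids that needs no heavy chain, was lower in K10-spastin at very low levels. It had 0.0457, 0.0608 and 0.0914 FPKM in K10-spastin 1 to 3, against 0.494, 0.396 and 0.670 FPKM in controls 1 to 3. Every K10-spastin library was below every control, and the mean of K10-spastin was 0.127 of that of control. These levels correspond to about 4.53, 6.80 and 9.06 fragments in K10-spastin and to 63.4, 36.3 and 63.4 fragments in control. The gene was below the filter. Without the filter it passed the test as lower, where 1.66% of genes did so, with a log2 difference of -0.51 ± 0.08 (limma adjusted p = 0.0344). That call was lost without any single library, at adjusted p-values of 0.0774, 0.120 and 0.0679 without K10-spastin 1, 2 and 3 and of 0.0941, 0.120 and 0.138 without controls 1, 2 and 3.

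Slc7a1 (ENSMUSG00000041313) encodes CAT1, the carrier of arginine, lysine and ornithine, and was not called. It had 28.9, 44.3 and 42.4 FPKM in K10-spastin 1 to 3, against 41.9, 35.8 and 44.2 FPKM in controls 1 to 3. K10-spastin 1 was the lowest of the 6 libraries, and the other 2 K10-spastin libraries stood in or just above the control range. The log2 difference was -0.09 ± 0.19 (95% interval -0.54 to 0.36, limma adjusted p = 0.781), and its sign turned to 0.011 under median-of-ratios scaling and to 0.096 without K10-spastin 1.

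Slc1a4 (ENSMUSG00000020142) and Slc1a5 (ENSMUSG00000001918) encode ASCT1 and ASCT2, sodium-dependent exchangers of small neutral amino acids, ASCT1 being known for alanine, serine, cysteine and threonine and ASCT2 also for glutamine. Slc1a4 had 0.946, 3.50 and 4.37 FPKM in K10-spastin 1 to 3, against 10.7, 5.90 and 6.34 FPKM in controls 1 to 3. Every K10-spastin library was below every control, and the means were 2.94 ± 1.78 FPKM in K10-spastin and 7.65 ± 2.66 FPKM in control (SD, n = 3 each). The log2 difference of -1.22 ± 0.41 (95% interval -2.18 to -0.25) had an unadjusted p of 0.0202 and a limma adjusted p of 0.0934, so it was not called. It was negative in all 17 other settings tried, from -1.54 to -0.53, and was called in none of them, with adjusted p-values of 0.0643 to 0.233. The summed level of 6 fibroblast markers was also lower, at 0.791 to 3.03 FPKM in K10-spastin against 6.44 to 42.3 FPKM in control. None of the 6 was at 0 in every library, and 4 had a mean of at least 1 FPKM. Control 1 had the lowest fibroblast sum of the controls and the highest Slc1a4, and the part of fibroblast RNA in the Slc1a4 values was not tested.

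Slc1a5 had 3.52, 8.74 and 7.96 FPKM in K10-spastin 1 to 3, against 7.07, 4.52 and 6.60 FPKM in controls 1 to 3. K10-spastin 1 was the lowest library and K10-spastin 2 and 3 were the highest, so the groups overlapped. The log2 difference was 0.07 ± 0.33 (95% interval -0.69 to 0.84, limma adjusted p = 0.901), and its sign turned without K10-spastin 2 (-0.13), K10-spastin 3 (-0.071) or control 2 (-0.095).

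Slc38a2 (ENSMUSG00000022462), which encodes the system A carrier SNAT2, rose in K10-spastin. It had 113, 78.2 and 54.1 FPKM in K10-spastin 1 to 3, against 38.6, 33.6 and 38.6 FPKM in controls 1 to 3. The controls lay close together, and every K10-spastin library stood above them. Within K10-spastin the order of the 3 libraries was that of Spast, which held for no other member. Slc1a4, Slc6a9 and Slc43a1 had the reverse order. The order of Spast was also that of Trib3, Tgm1 and Ivl, described below, and of the first principal component. The share of all tested genes with this order was not computed. A link to the Spast level was not tested. The means were 81.7 ± 29.5 FPKM in K10-spastin and 36.9 ± 2.90 FPKM in control (SD, n = 3 each), a ratio of 2.21. The log2 difference was 1.06 ± 0.25 (95% interval 0.47 to 1.66) with a limma adjusted p of 0.0411. It stayed positive in all 17 other settings, from 0.74 to 1.33, and was called in 7 of them, with adjusted p-values of 0.0122 to 0.138. Among the 10 settings that ended the call, it was lost without K10-spastin 2 (adjusted p = 0.0845) and without control 1 (0.0979), control 2 (0.138) or control 3 (0.124), and also without the filter (0.0771), under median-of-ratios scaling (0.0586), under quantile normalization (0.0522), and without limma's trend (0.0501). It was also lost without control 1 and K10-spastin 1 together (0.0652).

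**Figure D2:**
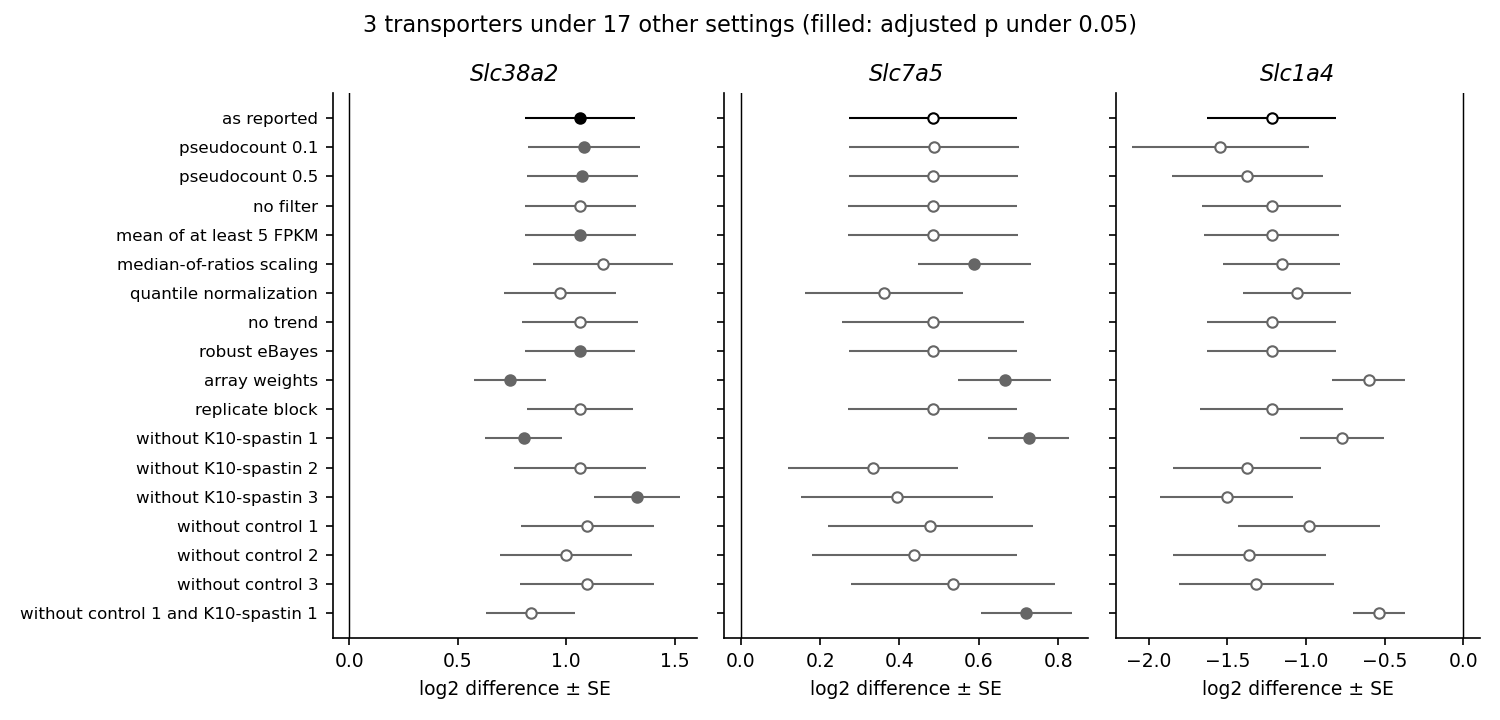
Log2 difference of K10-spastin over control, with its SE, for Slc38a2, Slc7a5 and Slc1a4 as reported (top, black) and under 17 other settings (grey). Filled points had an adjusted p under 0.05, and all points of Slc38a2 and Slc7a5 lie above 0 and all points of Slc1a4 below 0.

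The plot of the settings shows that the directions of these 3 genes held in every setting tried while the calls of Slc38a2 and Slc7a5 did not. K10-spastin 1 was at an extreme for all 3. It had the highest Slc38a2 of its group and the lowest Slc7a5 and Slc1a4. Across the 10 members K10-spastin 1 was the lowest of its group for 8, or 80%, against 63.8% of all tested genes. The 10 include 3 members below the filter, which the tested genes passed, so the 2 shares are of unlike sets. The part of this library in the values was not tested beyond leaving it out.

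Slc38a1 (ENSMUSG00000023169) encodes SNAT1, the other system A member of the 10, and was the scarcer by far. It had 0.823, 1.60 and 0.932 FPKM in K10-spastin 1 to 3, against 0.133, 0.204 and 0.337 FPKM in controls 1 to 3. Every K10-spastin library stood above every control, and the ratio of the means was 4.99. The values correspond to about 246, 541 and 279 fragments in K10-spastin and 51.5, 56.2 and 96.0 fragments in control. Its mean over the 6 libraries was 0.672 FPKM, below the filter. Without the filter the log2 difference was 0.78 ± 0.16 (95% interval 0.39 to 1.17) with a limma adjusted p of 0.0584. It was called in 3 of 15 other settings, which were median-of-ratios scaling (0.0399), quantile normalization (0.0288) and array weights (0.0342), and the adjusted p reached 0.198 without control 2.

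Slc6a9 (ENSMUSG00000028542) encodes GLYT1, which couples the uptake of glycine to sodium and chloride. It had 3.30, 5.55 and 6.19 FPKM in K10-spastin 1 to 3, against 5.13, 4.57 and 4.46 FPKM in controls 1 to 3. K10-spastin 1 was the lowest library and K10-spastin 2 and 3 were the highest. The log2 difference of 0.04 ± 0.24 (95% interval -0.51 to 0.59) was not called (limma adjusted p = 0.925), and its sign turned without K10-spastin 2 (-0.038) or 3 (-0.10). The gene overlaps 3 genes of the opposite strand in GENCODE M21, of which B4galt2 reached 6.15 FPKM and Ccdc24 0.104 FPKM while Gm17114 was listed at 0, and reads of such partners cannot be told apart where counting did not use strand. No other member overlapped a gene or had a copy of at least 90% identity over 200 bases.

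Ratios within a library do not depend on its scaling. They were chosen after the values had been seen, so they are given without a test, and 4 are plotted. How often ratios of other gene pairs separate the groups was not computed. Slc38a2 made up 65.2%, 50.7% and 39.8% of the summed FPKM of the system A genes Slc38a1, Slc38a2 and Slc38a4 in K10-spastin 1 to 3, against 26.1%, 18.5% and 24.8% in controls 1 to 3. The sum itself overlapped between groups, at 136 to 173 FPKM in K10-spastin and 148 to 181 FPKM in control. Slc38a4 thus held most of the summed system A FPKM in every control, and Slc38a2 in K10-spastin 1 and 2. The ratio of Slc38a2 to Slc38a1 overlapped, at 137, 48.8 and 58.0 in K10-spastin 1 to 3, against 290, 165 and 115 in controls 1 to 3.

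The ratio of Slc7a5 to Slc7a1 was 3.80, 4.30 and 4.12 in K10-spastin 1 to 3, against 2.60, 2.88 and 2.67 in controls 1 to 3. These groups were separate although neither gene was called. The ratio of Slc7a5 to its heavy chain Slc3a2 overlapped, at 1.68, 2.17 and 2.30 in K10-spastin 1 to 3 and at 1.81, 1.43 and 1.49 in controls 1 to 3. The ratio of Slc1a5 to Slc1a4 was 3.72, 2.50 and 1.82 in K10-spastin 1 to 3, against 0.660, 0.766 and 1.04 in controls 1 to 3. By FPKM, Slc1a5 thus exceeded Slc1a4 in every K10-spastin library and in control 3 alone among the controls. The 10 members together summed to 326, 420.4 and 367 FPKM in K10-spastin 1 to 3, against 273, 260.1 and 299 FPKM in controls 1 to 3.

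**Figure D3:**
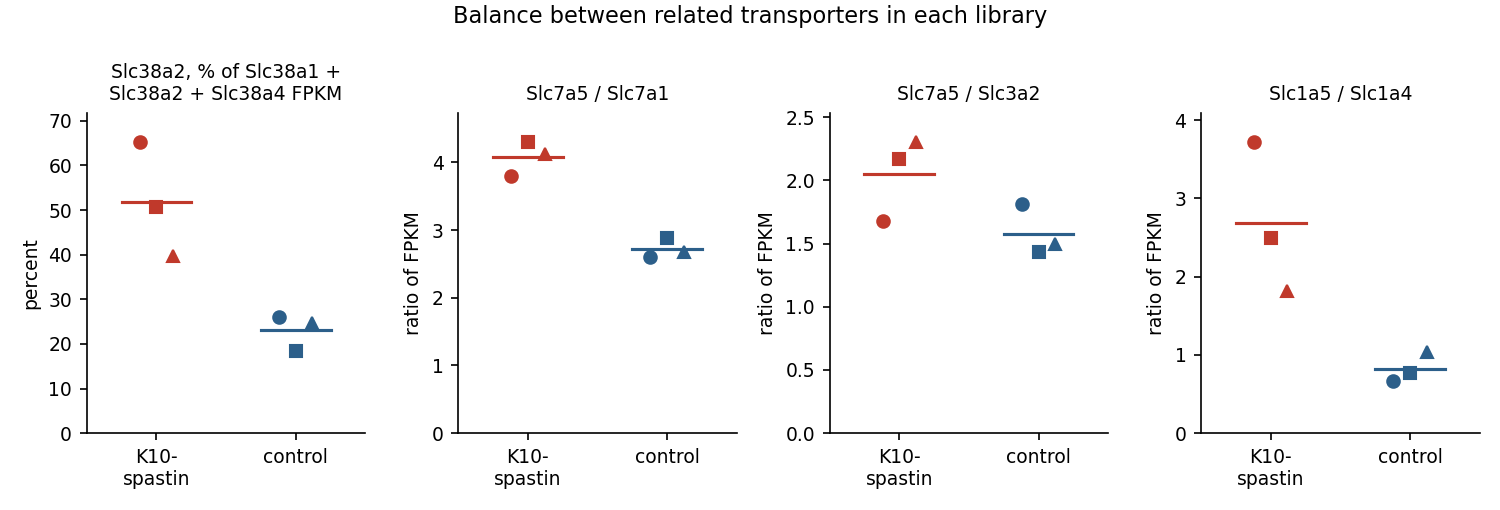
The share of Slc38a2 in system A transcripts (percent of summed FPKM) and 3 ratios of FPKM between related transporters, with K10-spastin (red) left of control (blue), group means as bars and libraries 1, 2 and 3 as circles, squares and triangles. The groups are separate for the Slc38a2 share, for Slc7a5 over Slc7a1 and for Slc1a5 over Slc1a4, and overlap for Slc7a5 over Slc3a2.

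Of 44 other amino acid transporters of the cell surface and lysosome, 20 were tested, 0 were called higher and 3 lower, beside 5.14% and 5.90% of all genes, and 11, or 55.0%, had an unadjusted p under 0.05, against 31.5% of all genes. Their median log2 difference was -0.35. Slc7a2, which encodes the cationic carrier CAT2, had 0.172, 0.131 and 1.07 FPKM in K10-spastin 1 to 3, against 3.50, 4.20 and 4.13 FPKM in controls 1 to 3, a log2 difference of -1.82 ± 0.28 (limma adjusted p = 0.0129). Its groups were far apart, whereas its relative Slc7a1, the more abundant cationic carrier, overlapped. Slc38a4, which encodes the system A carrier SNAT4, fell to 59.3, 74.5 and 80.8 FPKM in K10-spastin 1 to 3, against 109, 148 and 117 FPKM in controls 1 to 3, by 0.79 ± 0.17 on the log2 scale (limma adjusted p = 0.0328). In the same libraries its system A relative Slc38a2 was higher. Slc7a4, a relative of the cationic carriers, fell to 0.892 ± 0.265 FPKM in K10-spastin, against 2.67 ± 0.577 FPKM in control (SD, n = 3 each, log2 difference -0.95, limma adjusted p = 0.0350). None of these 3 was called without control 2 or without control 3, at adjusted p-values of 0.0593 to 0.118 and 0.0630 to 0.111. Without K10-spastin 2 or control 1 only Slc7a2 was called, and without K10-spastin 1 the adjusted p of Slc7a4 was 0.0501. Slc7a2, with a K10-spastin mean of 0.458 FPKM, and Slc7a4 passed the filter only through their control values. Without the filter 1 other transporter was called. The most abundant of the rest, Slc38a6, Slc38a10 and the cystine exchanger Slc7a11, which also pairs with the heavy chain, had log2 differences of -0.41, -0.57 and 0.33 (limma adjusted p = 0.270, 0.143 and 0.702).

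**Figure D4:**
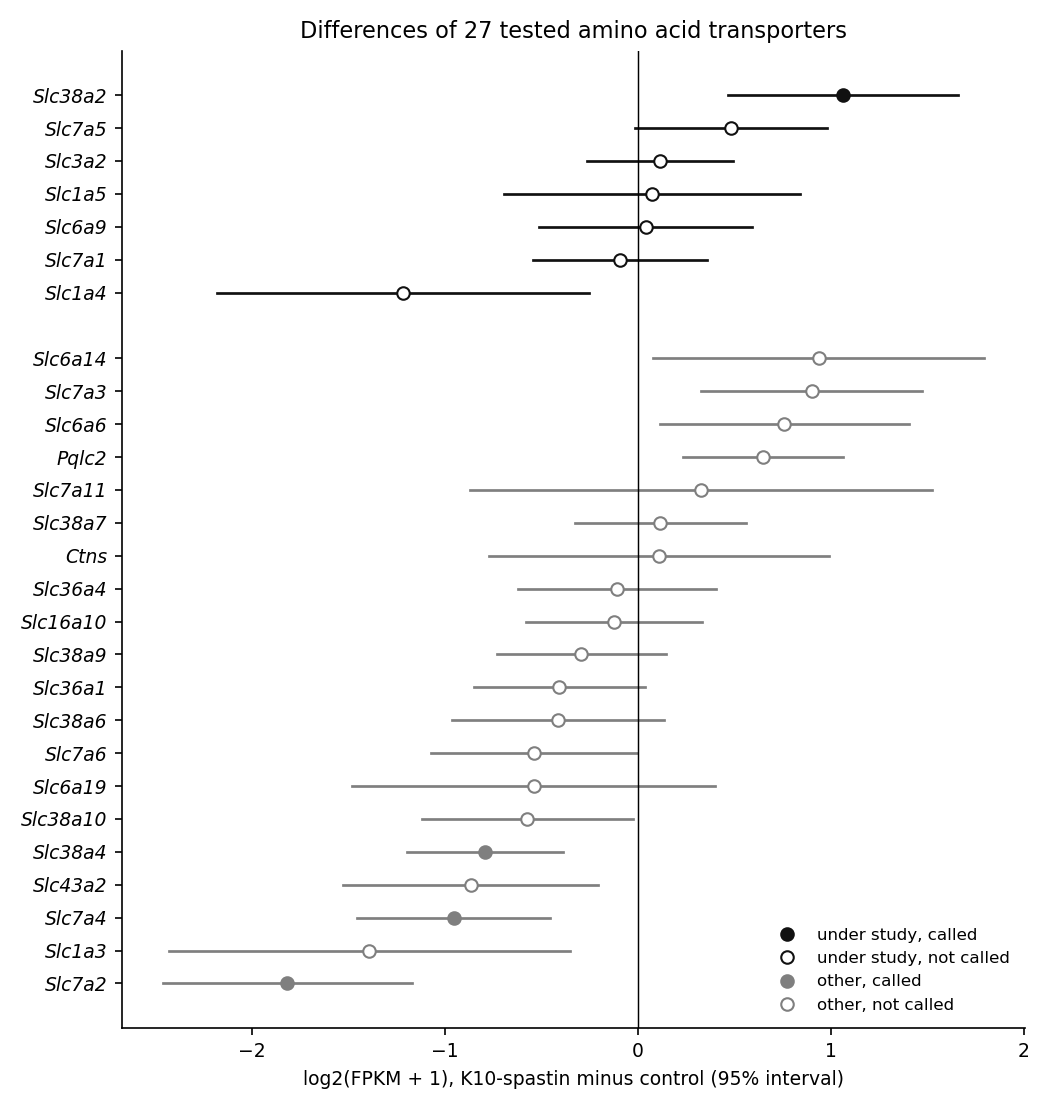
Log2 difference of K10-spastin over control with its 95% interval for the 7 tested members (black, top) and the 20 other tested amino acid transporters (grey). Filled points were called at an adjusted p under 0.05, namely Slc38a2 above 0 and Slc38a4, Slc7a4 and Slc7a2 below 0.

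In the plot of differences the tested members are spread around 0, with Slc38a2 at the top and Slc1a4 at the bottom, and 13 of the 20 other transporters (65.0%) lie below 0, as do 58.4% of all tested genes. Within the mitochondrion, 10 of 11 listed amino acid carriers were tested, 2 were called higher and 1 lower, beside 5.14% and 5.90% of all genes. An unadjusted p under 0.05 was found for 4 of the 10 (40.0%), against 31.5% of all genes. Both aspartate-glutamate carriers rose, Slc25a13 by 1.12 ± 0.17 and Slc25a12 by 0.65 ± 0.15 on the log2 scale (limma adjusted p = 0.0125 and 0.0395), and the sideroflexin Sfxn3 fell by 1.20 ± 0.24 (0.0260).

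ATF4 is a transcription factor that amino acid shortage activates and that is known to raise Slc38a2, Slc7a5, Slc3a2 and Slc7a1 in other cells. Of 23 genes listed as ATF4, its targets and the enzymes of serine, asparagine and proline synthesis, 5 were called higher and 2 lower, beside 5.14% and 5.90% of all genes. Their median log2 difference was 0.36, against -0.09 for all genes. Of the 23, 15 (65.2%) had an unadjusted p under 0.05, against 31.5% of all genes. A log2 difference above 0 was found for 17 (73.9%), against 41.6%. Mthfd2, an enzyme of mitochondrial folate metabolism, rose by 1.84 ± 0.21, Trib3, a pseudokinase, by 2.12 ± 0.29, Chac1, which breaks down glutathione, by 1.33 ± 0.21 and asparagine synthetase Asns by 0.75 ± 0.13 on the log2 scale (limma adjusted p = 0.00629, 0.00974, 0.0136 and 0.0175). Chac1 averaged 0.349 FPKM in control and passed the filter only through its K10-spastin values. Cbs, an enzyme of cysteine synthesis, fell by 1.49 ± 0.24 and the stress factor Atf3 by 2.33 ± 0.50 (limma adjusted p = 0.0154 and 0.0317). Atf4 itself had 132 ± 24.5 FPKM in K10-spastin and 102 ± 14.4 FPKM in control (SD, n = 3 each) and was not called (log2 difference 0.36 ± 0.18, limma adjusted p = 0.222). The abundant serine synthesis genes Phgdh and Psat1 were not called either. Their log2 differences were -0.76 ± 0.21 and 0.19 ± 0.25 (limma adjusted p = 0.0579 and 0.647), and every K10-spastin library was below every control for Phgdh. Among the transporter genes named with ATF4 above, Slc38a2 was called and Slc7a5, Slc3a2 and Slc7a1 were not.

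Of 20 aminoacyl-tRNA synthetases, which load the imported amino acids onto tRNA, 2 were called higher and 0 lower, beside 5.14% and 5.90% of all genes. Of the 20, 8 (40.0%) had an unadjusted p under 0.05, against 31.5% of all genes, and 18 had a log2 difference above 0, against 41.6%. The called ones were Gars (0.71 ± 0.11, limma adjusted p = 0.0152) and Nars (0.66 ± 0.14, 0.0292). Of 25 tested genes of mTORC1 amino acid sensing, the pathway that leucine taken up through LAT1 feeds, 0 were called higher and 1 (4%) lower, with 9 (36.0%) at an unadjusted p under 0.05, against 5.90% and 31.5% of all genes. The called gene was Sesn1, a sestrin (log2 difference -1.23 ± 0.32, limma adjusted p = 0.0496), which was called in 5 of the 17 other settings and, with a single library left out, only without K10-spastin 3 (0.0140). Without K10-spastin 1 or 2 its adjusted p was 0.0570 and 0.0986, and without controls 1, 2 and 3 it was 0.118, 0.161 and 0.139. Of 11 tested genes of the MYC network, a known regulator of Slc7a5 and Slc1a5 in tumour cells, 1 was called higher and 3 lower, beside 5.14% and 5.90% of all genes. An unadjusted p under 0.05 was found for 8 of the 11 (72.7%), against 31.5% of all genes. Mxd1, a MYC antagonist, rose by 1.22 ± 0.26 (limma adjusted p = 0.0299), and Myc fell by 0.93 ± 0.18, Mycl by 1.99 ± 0.39 and the repressor Mnt by 0.82 ± 0.17 (0.0248, 0.0250 and 0.0273).

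Of 22 tested enzymes that use the transported amino acids, free or as residues of proteins, 1 was called higher and 4 lower, beside 5.14% and 5.90% of all genes. Tgm1, the transglutaminase that cross-links the cornified envelope, rose by 1.96 ± 0.29 on the log2 scale (limma adjusted p = 0.0126). Odc1, which turns ornithine into polyamines, fell by 1.07 ± 0.18, the branched-chain keto acid dehydrogenase subunit Bckdha by 1.24 ± 0.23, argininosuccinate synthase Ass1 by 1.39 ± 0.26 and proline dehydrogenase Prodh by 1.51 ± 0.34 (limma adjusted p = 0.0176, 0.0195, 0.0203 and 0.0352). Ornithine, the substrate of Odc1, is carried by Slc7a1, which was not called. The summed level of 4 granular markers was 3215, 3233 and 14838 FPKM in K10-spastin 1 to 3, against 1244, 5317 and 4717 FPKM in controls 1 to 3, and Lor alone had 14562 FPKM in K10-spastin 3. Ivl, the envelope protein involucrin and the only one of the 4 called, had 405, 192 and 113 FPKM in K10-spastin 1 to 3, against 18.4, 63.3 and 35.1 FPKM in controls 1 to 3 (log2 difference 2.54 ± 0.55, limma adjusted p = 0.0321). With a single library left out, Ivl was called only without K10-spastin 3 (0.0201), and its adjusted p was 0.0532 and 0.0688 without K10-spastin 1 and 2 and 0.0841, 0.0523 and 0.108 without controls 1, 2 and 3. Among the spinous and basal markers Krt10 and Krt15 alone were called, both lower, beside 5.90% of all genes. Their log2 differences were -0.81 ± 0.20 and -3.05 ± 0.62 (limma adjusted p = 0.0438 and 0.0269). The part of these markers in the transporter values was not tested. Of the 21 genes named as called in these lists beside the surface transporters, 18 were called without K10-spastin 1, 13 without K10-spastin 2, 18 without K10-spastin 3, 10 without control 1, 5 without control 2 and 1, Mthfd2, without control 3.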

How the data were processed

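The deposited table holds FPKM per Ensembl gene, computed by the authors. Each library has 1 column, and 0 columns were left unmapped. Per the submitters' processing notes, CASAVA and TopHat2 were used. The sources used here do not give the counter, build, annotation or strand setting. Symbols from a table of gene names matched 34490 of 35275 identifiers and left 785 unmatched. Depth was read from whole-fragment steps with GENCODE M21 exon lengths, which may not be the authors' annotation, and 90.5% to 91.5% of low values, up to 20 fragments, came out whole within 0.05. In a 1 kb transcript 3 fragments were worth 0.133 to 0.187 FPKM, which covers counting error only. Since FPKM values are not counts, no count test was run.

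limma 3.58.1 in R 4.3.3 compared 3 K10-spastin with 3 control libraries on log2(FPKM + 1), two-sided, with a trend, no covariate and Benjamini-Hochberg adjustment over 11071 genes that averaged 1 FPKM or more. Since an exact permutation test of 3 against 3 allows no two-sided p below 0.1, limma's variance, shared across genes, carries the p-values. When tested on simulated data of 10919 genes, the fit called 47.2% of those changed 2-fold and 93.5% of those changed 4-fold, with 0 signs wrong, and 7.43% of the calls fell on genes left unchanged. The simulation changed 108 genes 2-fold and 92 genes 4-fold, all of intermediate level, with noise drawn independently for each library. These rates therefore do not cover low genes such as Slc1a4. Named were all members, Spast, of each other list the called genes, up to 6 by smallest p and up to 3 others by highest mean, and the 5 genes most like Slc3a2. Not all genes the rule names are printed. The members and lists were chosen with earlier results of these data known.

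Alternatives were other pseudocounts (0.1, 0.5), another filter (none, 5 FPKM), other scaling (median-of-ratios, quantile), other limma settings (no trend, robust variances, array weights, a replicate block) and leaving out each library. The fit without both K10-spastin 1 and control 1 was added after seeing the data. Copies were sought with BLAST 2.17.0. Tables and figures were made in Python 3.11.15 (pandas 2.3.3, matplotlib 3.10.9). Promoters are RefSeq's on GRCm38.p6.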

Additional observations from a re-analysis of the deposited data

How the results depend on the processing

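The number of called members, 1 as reported, was 0 under quantile normalization, 0 without a trend, 2 with array weights and 0 with the replicate block, and ranged from 0 to 2 as each library was left out. Without the filter it was again 1, but the gene was Slc43a1. Under median-of-ratios scaling, and without control 1 and K10-spastin 1 together, it was Slc7a5. Of the other surface and lysosomal transporters, 3 as reported, 1 was called without the filter, 1 at a mean of at least 5 FPKM, 6 with array weights, 1 with the replicate block and 0 to 5 with a library left out. Over all genes the 1222 calls became 667 without the filter (319 higher, 348 lower), 3306 with array weights, 492 with the replicate block and 145 to 1382 with a library left out, the lowest without control 3. The cause of these shifts was not tested. The sign of Slc7a1 turned under median-of-ratios scaling (0.011), array weights (0.089) and without control 1 and K10-spastin 1 together (0.12), and it ranged from -0.20 to 0.096 with a library left out. In such fits Slc1a5 ranged from -0.13 to 0.42, Slc6a9 from -0.10 to 0.27, Slc7a11 from -0.10 to 0.82 and Slc7a8 without the filter from -0.15 to 0.035, and Slc7a8 was 0.023 under quantile normalization. Over 43 named genes, 13 values of single settings turned sign, 133 lost and 14 gained a call, and 559 kept both direction and call. Same-numbered libraries correlated at -0.128, -0.378 and -0.0471 in their deviations from the group means, no library correlated best with its own number, and the labels tie no number to a litter or day, so the numbers were not taken as pairs. With them as a block the adjusted p of Slc38a2 was 0.0638. With 3 libraries a group, the few fragments of Slc7a8 (about 1.24 to 29.8) and of Slc43a1 in K10-spastin (about 4.53 to 9.06) and an unknown counting method limit what these data resolve.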

Other observations

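Slc7a3, which encodes the cationic carrier CAT3, was chosen after its values were seen. It had 2.97, 1.52 and 1.71 FPKM in K10-spastin 1 to 3, against 0.593, 0.417 and 0.842 FPKM in controls 1 to 3. Every K10-spastin library stood above every control, and the log2 difference of 0.90 ± 0.24 was not called (limma adjusted p = 0.0564). Slc7a3 averaged 0.617 FPKM in control and passed the filter only through its K10-spastin values. Among the 3 cationic carriers of this subfamily, Slc7a1 made up 90.2% to 96.4% of the summed FPKM in K10-spastin and 88.6% to 91.1% in control. Slc7a2 made up 0.285% to 2.37% in K10-spastin and 7.62% to 10.4% in control, and Slc7a3 made up 3.30% to 9.26% in K10-spastin and 1.03% to 1.71% in control. Slc7a2 and Slc7a3 thus exchanged rank behind Slc7a1, with Slc7a3 above Slc7a2 in every K10-spastin library and below it in every control.

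Slc7a5 made up 98.9% to 99.2% of the summed FPKM of Slc7a5, Slc7a8, Slc43a1 and Slc43a2 in K10-spastin and 95.7% to 97.5% in control. Of other cell types, the erythroid markers summed to 3.79 to 17.4 FPKM in K10-spastin and 7.64 to 331 FPKM in control, and the melanocyte markers to 1.89 to 23.2 FPKM in K10-spastin and 4.07 to 15.3 FPKM in control. The immune markers summed to 0.148 to 1.87 FPKM in K10-spastin and 0.0271 to 0.870 FPKM in control. The endothelial markers summed to 0.239 to 0.332 FPKM in K10-spastin and 0.153 to 0.334 FPKM in control, and the muscle markers to 1.32 to 2.24 FPKM in K10-spastin and 1.60 to 2.61 FPKM in control. Cd207 and Cd3e were listed at 0 in all libraries. Their part in the transporter values was not tested.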
